A study of Mus musculus with 6 samples.

Results

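The respiratory chain genes are the 107 protein-coding genes, of 55573 genes listed, whose symbols begin with mt-, Nduf, Uqcr, Atp5 or one of Cox4 to Cox8, together with Sdha to Sdhd. Of these, 94 are nuclear and 13 lie on the mitochondrial chromosome. The rule uses names and positions and no measured value, but the members were chosen with earlier results of these data known. They were counted by RNA sequencing in mouse regulatory T cells (Tregs), the Foxp3-positive CD4 T cells that restrain immune responses, sorted from the spleen of bi-parental chimeras, mice whose blood cells derive from transplanted bone marrow. The comparison was between 3 libraries of Tregs labelled Nfkb2-/-, for the gene of the NF-kB precursor p100, and 3 libraries of wild-type Tregs. Both groups came from such chimeras, received no treatment, were sorted to over 90% purity and rested 2 h at 37 °C in medium before lysis, per the labels. The labels give no age, sex or strain of donors or hosts and do not say how many animals went into a library, so p-values measure the spread between libraries that the labels call biological repeats.

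Oxidative phosphorylation passes electrons from NADH (through complex I) or succinate (through complex II) to complex III and then to oxygen at complex IV, and complex V, the ATP synthase, makes ATP from the proton gradient that builds up. Complexes I, III, IV and V join nuclear subunits, which are made in the cytosol and imported, with subunits made inside the mitochondrion from its own DNA, while complex II is wholly nuclear. Tregs are known to rely on mitochondrial respiration more than effector T cells do.

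Pieces of the mitochondrial genome have been copied into the nuclear genome, and such copies bear on which mitochondrial genes can be counted at all. In the GENCODE M21 annotation of GRCm38, 5 mitochondrial members (mt-Atp6, mt-Co2, mt-Co3, mt-Nd3 and mt-Nd4l) had over 90% of their length in a pseudogene on chromosome 1 at 99.7% identity or more. The first 876 of 1378 bases of mt-Nd4 were identical to Gm28439, and the last 483 of 1545 bases of mt-Co1 matched Gm29216 with 1 mismatch. No copy of 100 bases or more at 98% identity was found for mt-Nd1, mt-Nd2, mt-Nd5, mt-Nd6 or mt-Cytb. The stretches below, read from that annotation's build, show 3 such pairs over 61 bases each, from chrM:9459-9519 and chr1:24613059-24613119 (minus strand) for mt-Nd3, chrM:6390-6450 and chr1:24616128-24616188 (minus strand) for mt-Co1, and chrM:7323-7383 and chr1:24615195-24615255 (minus strand) for mt-Co2. Capitals mark the differing base, which was T3C in mt-Nd3 and A1066T in mt-Co1, with the mitochondrial base first and positions counted from the first base of the mitochondrial gene, and the mt-Co2 pair has none.
mt-Nd3: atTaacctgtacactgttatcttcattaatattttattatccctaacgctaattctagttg
Gm28438: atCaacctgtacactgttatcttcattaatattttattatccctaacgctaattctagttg
mt-Co1: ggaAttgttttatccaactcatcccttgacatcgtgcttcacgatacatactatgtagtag
Gm29216: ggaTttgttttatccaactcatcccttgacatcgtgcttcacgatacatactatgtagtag
mt-Co2: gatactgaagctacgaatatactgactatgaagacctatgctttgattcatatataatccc
Gm28661: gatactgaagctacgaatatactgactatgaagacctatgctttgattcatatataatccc

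Nuclear respiratory chain genes sit behind separate promoters that often carry binding motifs of NRF1, of ETS factors such as GABP, and of YY1. RefSeq promoters (GRCm38.p6, 250 bases before to 50 after the start) were found for 74 of 93 nuclear symbols, 79 promoters in all. The NRF1 motif GCATGCGC, on either strand, stood in 15.2% of these 79 and in 2.71% of all 32851 promoters of the same length. The ETS motif CCGGAAG, on either strand, stood in 22.8% against 8.86%, and the YY1 motif AAGATGGC, on either strand, in 12.7% against 2.75%. The NF-Y motif CCAAT, on either strand, stood in 43% against 37.4%. At least 1 of the NRF1, ETS and YY1 motifs was present in 41.8% of member promoters and 13.3% of all promoters. These matches are descriptions of letters in a window and do not show binding. The 250 bases before the start are shown for 2 members, Atp5e (epsilon subunit of the ATP synthase, the member with the smallest adjusted p in any fit; chr2:174464102-174464351, minus strand) and Cox6a1 (a complex IV subunit; chr5:115348959-115349208, minus strand), with NRF1 and ETS matches on either strand in capitals. The ETS match of Atp5e began 102 bases before the start, and Cox6a1 had overlapping NRF1 matches on the 2 strands from 162 bases and an ETS match from 16 bases before it.
Atp5e: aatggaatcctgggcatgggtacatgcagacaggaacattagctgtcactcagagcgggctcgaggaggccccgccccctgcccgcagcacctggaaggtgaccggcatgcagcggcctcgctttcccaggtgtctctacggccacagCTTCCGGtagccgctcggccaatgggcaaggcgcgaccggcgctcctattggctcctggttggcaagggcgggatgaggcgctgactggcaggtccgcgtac
Cox6a1: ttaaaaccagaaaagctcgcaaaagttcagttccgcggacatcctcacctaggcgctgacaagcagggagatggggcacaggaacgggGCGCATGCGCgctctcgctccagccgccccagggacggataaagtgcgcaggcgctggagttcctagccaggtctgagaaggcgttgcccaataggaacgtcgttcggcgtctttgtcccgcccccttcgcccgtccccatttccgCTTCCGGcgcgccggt

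Library totals ran from 12005273 to 17278521 counts, and 13347 genes passed the count filter, 97 of the members among them. Levels are given in CPM, counts scaled to the size of each library with TMM factors. Nfkb2 itself was at 269, 324 and 271 CPM in Nfkb2-/- replicates 1 to 3 and at 558, 545 and 556 CPM in wild type, a log2 fold change of -0.94 (SE 0.13, adjusted p = 0.0203, edgeR quasi-likelihood test). The libraries labelled Nfkb2-/- thus kept a mean of 288 CPM of Nfkb2 beside 553 CPM in wild type. The labels do not say which part of the gene is deleted, and counts per gene do not show whether that part is missing, so the genotype names used here are those of the labels. The call was lost (adjusted p from 0.0567 to 0.176) when any library other than wild-type replicate 1 was left out. All 7 Treg markers had counts, with Foxp3 at 448 to 576 against 407 to 622 CPM. The genotypes also differed in Xist (592 to 883 against 1.94 to 16.5 CPM) and in the sum of 4 Y-linked genes (40 to 275 against 465 to 498 CPM), so genotype and donor sex cannot be told apart. All 3 Nfkb2-/- libraries had both, with Xist at 841, 883 and 592 CPM in replicates 1 to 3. Their Y-linked sums were 40, 138 and 275 CPM. The 10 B cell markers, all with counts, summed to 30 to 52.8 against 82.7 to 267 CPM. Sums of the myeloid (15.6 to 31 against 16.9 to 46.9 CPM), NK and CD8 T cell (38.4 to 49.7 against 23.1 to 53.5 CPM) and erythroid markers (24 to 45.2 against 35.1 to 61.5 CPM) overlapped. The part of sex and of other cells in the values below was not tested. In such bulk samples, fewer cells of a type and less RNA per cell cannot be told apart.

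With all 6 libraries, no respiratory chain gene passed the test between genotypes. Of 97 members tested, 0 were called at an adjusted p under 0.05 by edgeR, against 1.42% of all genes tested, and 0 by DESeq2 or limma-voom, which called 3.97% and 1.47% of their genes. With the replicate number as a block edgeR called 0 members and 2.17% of all genes. At an unadjusted p under 0.05 there were 2 members, Sdhb and mt-Nd2, which is 2.06% of the members against 13.6% of all genes. The CPM values of the genotypes did not overlap in 8 members (8.25%), against 20.6% of all genes. Of the 97, Sdhb, Uqcrc1 and Atp5o were the 3 that lay higher in Nfkb2-/-, beside 10.7% of all genes. Lower were 5, among them Ndufb2, Sdha, mt-Nd2 and mt-Cytb, beside 9.9% of all genes. The 54 nuclear members with a positive and 32 with a negative log2 fold change had a median of 0.05, and the 11 tested mitochondrial members one of -0.18, beside -0.03 over all genes. A missed threshold does not show that levels were alike. Standard errors of the log2 fold change ran from 0.11 for members such as Sdha and Uqcrc1 to 0.65 for mt-Nd4l.

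**Figure D1:**
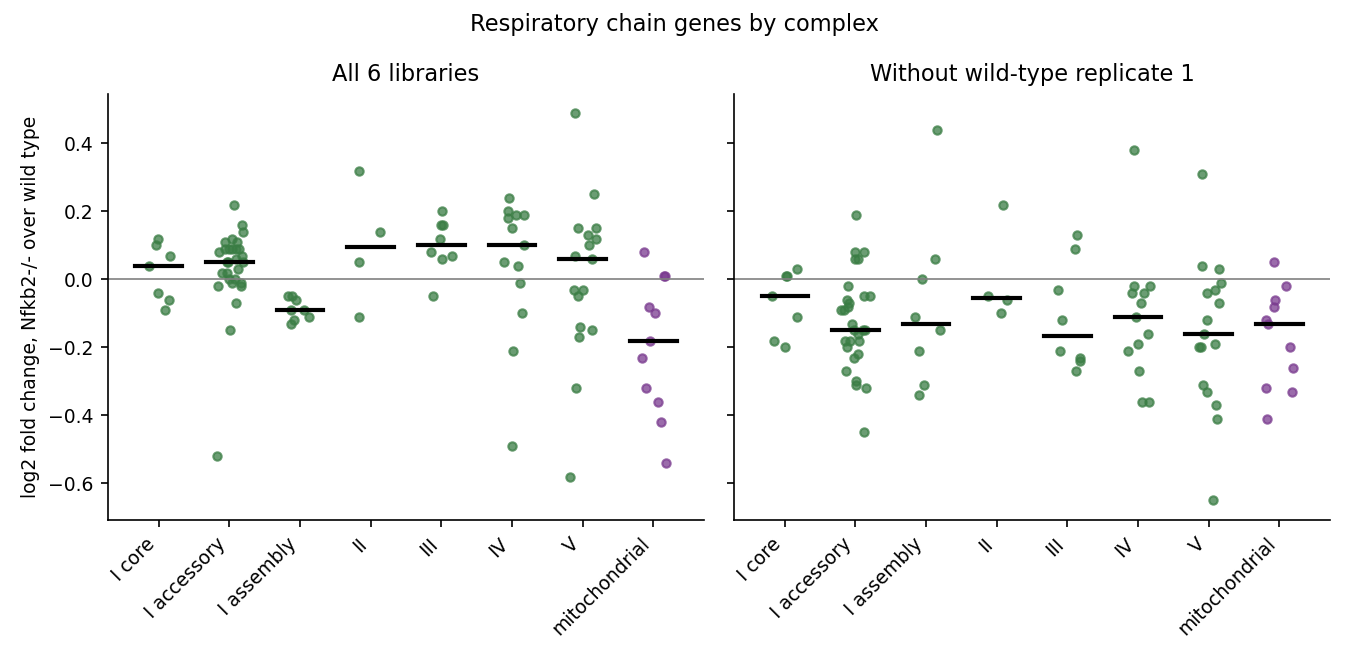
Log2 fold change (Nfkb2-/- over wild type, edgeR) of each tested member, by complex, with the median of each set as a bar. The left panel uses all 6 libraries and the right leaves out wild-type replicate 1, and the nuclear medians of all sets but the assembly factors lie above 0 on the left and below 0 on the right.

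The nuclear members spread more within the wild type than within Nfkb2-/-, as did all genes. The median SD of log2 level among replicates was 0.111 over nuclear members in Nfkb2-/-, 0.363 in wild type, and 0.168 between wild-type replicates 2 and 3, beside 0.152, 0.294 and 0.136 over all genes tested. Summed over all 94 nuclear members, the Nfkb2-/- libraries stood at 5551, 6043 and 6129 CPM and the wild-type ones at 4315, 5823 and 6821 CPM. Wild-type replicate 1 was the lowest library for 70 of the 86 tested nuclear members, and wild-type replicate 3 the highest for 55. The Nfkb2-/- libraries lay between these extremes for most members.

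**Figure D2:**
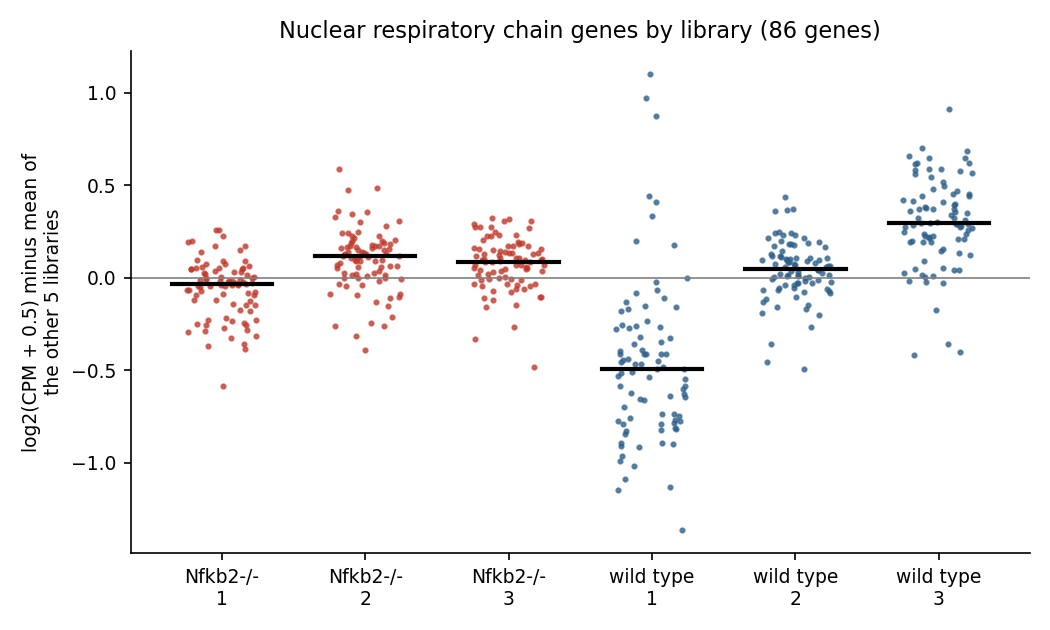
Each point is a tested nuclear member (86 genes) in 1 library, as log2(CPM + 0.5) minus its mean in the other 5 libraries, with the median of each library as a bar. The median was -0.49 in wild-type replicate 1 and 0.30 in wild-type replicate 3, and between -0.03 and 0.12 in the other libraries.

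The low values of wild-type replicate 1 were deepest in the short transcripts. Over 86 nuclear members, the deviation of that library from the other 5 correlated with the log2 length of the principal transcript (Pearson r = 0.47, Spearman 0.54), against 0.14 (Spearman 0.15) over 11137 other protein-coding genes. In wild-type replicate 3 the correlation was -0.45 (Spearman -0.49), against -0.32 (Spearman -0.36) over the other genes, and in the other libraries it ran from -0.29 to -0.03. These are correlations across genes that share their libraries, given as a description. The 43 members with transcripts of up to 891 bases had a median deviation of -0.69 in wild-type replicate 1, and the 43 longer ones -0.35. Ndufa1, a small accessory subunit of complex I on the X chromosome, was at 9.01 CPM in that library, 32.3% of the mean of wild-type replicates 2 and 3. Uqcr10 stood at 39.9%, Atp5e at 40.1%, Cox7b at 42.4% and Cox4i1 at 50.6% of that mean. Sdha (111%), a catalytic subunit with a longer transcript, stood close to it, and the complex I assembly factor Ndufaf1 (228%) and the testis isoform Cox6b2 (335%) above it.

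**Figure D3:**
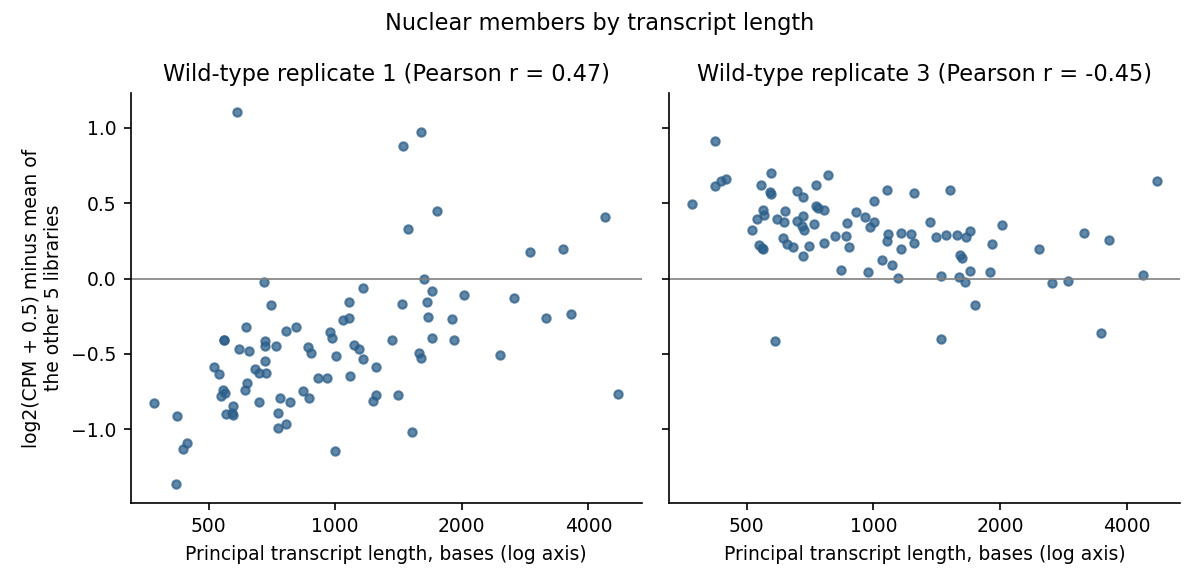
Deviation of each nuclear member in wild-type replicate 1 (left) and wild-type replicate 3 (right), as log2(CPM + 0.5) minus the mean of the other 5 libraries, against the length of its principal transcript in bases (log axis). Short transcripts lie low in replicate 1 and high in replicate 3.

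Leaving out wild-type replicate 1 turned the direction of the nuclear set. The median log2 fold change of the 86 nuclear members went from 0.05 to -0.11, with 17 positive and 69 negative, while the median over all genes went from -0.03 to -0.00. Of the 97 members, 43 changed sign. A single member, Atp5e, was then called, and 9 (9.28%) had an unadjusted p under 0.05, all of them lower in Nfkb2-/-, against 23.1% of all genes. This 1 call stands beside 9.04% of all genes called in either direction and 4.44% called lower in that fit. Non-overlapping genotypes were then seen in 27.8% of members and 40.1% of all genes. Atp5e was at 56.6, 71.7 and 68.9 CPM in Nfkb2-/- and at 41.2, 86.4 and 119 CPM in wild type. The genotypes thus overlapped through wild-type replicate 1 alone, and the log2 fold change was -0.32 (SE 0.34, adjusted p = 0.758, edgeR) with all libraries and -0.65 (SE 0.15, adjusted p = 0.0181, edgeR) without that one. Over the single libraries left out it ran from -0.65 to 0.04. Leaving out wild-type replicate 3 instead moved the nuclear median the other way, from 0.05 to 0.20.

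Complex I, the NADH dehydrogenase, had 44 tested nuclear members, with summed levels of 1201, 1263 and 1259 CPM (Nfkb2-/-) against 976, 1235 and 1445 CPM (wild type). Its 7 nuclear core subunits, which carry the flavin and the iron-sulfur clusters, had log2 fold changes from -0.09 to 0.12 (median 0.04). Ndufs3, a core subunit of the matrix arm, was at 40.8, 42.2 and 44 CPM against 34.7, 40 and 43.9 CPM. Its genotypes overlapped, and the log2 fold change was 0.10 (SE 0.14) with all libraries and 0.01 without wild-type replicate 1.

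The 29 accessory subunits, which surround the core and support assembly and stability, had a median log2 fold change of 0.05, with 22 positive and 7 negative. Ndufa6 had the highest level per length (108 CPM per kilobase). Ndufb2 had the lowest level per length of all tested members, 0.81 CPM per kilobase over a principal transcript of 4371 bases that shares exon sequence with overlapping genes. It was at 2.73, 2.67 and 3.34 CPM in Nfkb2-/- and at 4.53, 4.43 and 3.53 CPM in wild type, all lower, with a log2 fold change of -0.52 (SE 0.26, adjusted p = 0.453, edgeR). Counts in the shared exons cannot be assigned to 1 gene with certainty. The low level per length of Ndufb2 rests in part on the 4371-base principal transcript in the annotation. Ndufb2 was 1 of 17 nuclear members that shared 100 bases or more with a gene at their own locus. Cox4i1, Uqcrc2 and Atp5o were among the others. Ndufb7 gave a log2 fold change of 0.22 (SE 0.17), with 55.6, 57.9 and 61.2 CPM against 40.4, 48.6 and 61.2 CPM, and 0.08 without wild-type replicate 1. Ndufb8, which lies 1.75 Mb from Nfkb2 on chromosome 19 (chr19:44548572-44555440) and was the 1 member within 10 Mb of it, gave 0.09 (SE 0.19) with all libraries and -0.05 without wild-type replicate 1. The 3 X-linked members, Ndufa1, Ndufb11 and the complex IV subunit Cox7b, had log2 fold changes of 0.05, 0.05 and 0.20, none called. All 3 turned negative without wild-type replicate 1, at -0.32, -0.16 and -0.11.

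The 8 complex I assembly factors, proteins that help build the complex and are not part of it, were the 1 nuclear set in which every log2 fold change was negative, from -0.13 to -0.05 (median -0.09). Each was smaller than its SE of at least 0.21, and none was called. Their summed level was 57.1, 61.7 and 56.9 CPM against 61.6, 57.3 and 68.4 CPM, which overlapped. Ndufaf7, a mitochondrial methyltransferase, gave -0.13 (SE 0.22) and Ndufaf3 gave -0.12 (SE 0.25). Ndufaf8 had the highest level per length of them (13.9 CPM per kilobase). Without wild-type replicate 1 their values spread from -0.34 to 0.44, with 2 positive.

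Complex II, succinate dehydrogenase, joins the citric acid cycle to the chain. Sdhb, its iron-sulfur subunit, had the smallest p of the nuclear members, with 90.8, 86.9 and 95.0 CPM in Nfkb2-/- against 61.8, 75 and 81.1 CPM in wild type. Every Nfkb2-/- library lay above every wild-type library, and the log2 fold change was 0.32 (SE 0.13, adjusted p = 0.345, edgeR). It ran from 0.22 to 0.41 over the single libraries left out, 0.22 being the value without wild-type replicate 1. Sdha, the flavoprotein subunit that binds succinate, went the other way, with 204, 196 and 199 CPM against 229, 210 and 205 CPM and a log2 fold change of -0.11 (SE 0.11). Sdhb and Sdha stood at 71.6 and 71.4 CPM per kilobase, so the levels of the catalytic pair per length, averaged over all libraries, were close. By genotype they were less so, at 79.6 and 68.8 in Nfkb2-/- and at 63.6 and 74 in wild type. The membrane anchors Sdhc and Sdhd gave 0.05 (SE 0.16) and 0.14 (SE 0.23), which turned to -0.05 and -0.10 without wild-type replicate 1.

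Complex III, the cytochrome bc1 complex, had 8 nuclear members with a median log2 fold change of 0.10, of which 7 were positive. Uqcrc1, a core scaffold protein, was at 206, 210 and 225 CPM against 185, 190 and 200 CPM, higher in every Nfkb2-/- library, with a log2 fold change of 0.16 (SE 0.11, adjusted p = 0.619, edgeR). Its partner Uqcrc2 also gave 0.16 (SE 0.12), but its genotypes overlapped. Uqcrh, the hinge protein, had the highest level per length (214 CPM per kilobase). Without wild-type replicate 1, 6 of the 8 were negative, with Uqcrc1 at 0.13 and Uqcrc2 at 0.09 as the exceptions.

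Complex IV, cytochrome c oxidase, passes electrons to oxygen, and 13 of its 20 nuclear members were tested, with a median log2 fold change of 0.10 (9 positive, 4 negative). Cox4i1, the ubiquitous form of subunit IV, was at 166, 166 and 171 CPM against 85.7, 144 and 195 CPM. The Nfkb2-/- libraries lay close together, within the wider range of the wild-type libraries. The log2 fold change was 0.24 (SE 0.26) with all libraries and -0.02 without wild-type replicate 1. It ran from -0.02 to 0.54 over the single libraries left out. Cox7a2l, also known as Scaf1, a factor that joins complexes III and IV into supercomplexes, had the highest level per length of complex IV (220 CPM per kilobase) and a log2 fold change of -0.21 (SE 0.19). Without wild-type replicate 1 it was -0.36, with the genotypes separate, and over the single libraries left out it ran from -0.36 to 0.02.

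Several complex IV and V subunits exist as isoforms used by different tissues, and Tregs of both genotypes expressed the common forms. Levels per kilobase of principal transcript were compared within each family. Cox4i1 made up 99.3% to 100% of its pair with the hypoxia and lung form Cox4i2, Cox6a1 98.2% to 100% of its pair with the heart and muscle form Cox6a2, and Cox6b1 94.4% to 99.1% of its pair with Cox6b2. In the Cox7a family, Cox7a2l made up 74.2% to 83.8%, Cox7a2 14.9% to 24.5% and the muscle form Cox7a1 at most 1.3%. Cox7b2, Cox8b and Cox8c had 0 counts in every library, while their partners Cox7b and Cox8a were detected throughout. Those 0 counts allow up to 0.174 to 0.25 CPM by library (3 counts over the library total, without TMM factors). Ndufa4l2, a hypoxia-induced relative of Ndufa4, had 2 counts, both in 1 wild-type library. Cox6a2 had 44 counts, and its level reached 2.06 CPM in wild-type replicate 2 alone. The 3 genes of the ATP synthase c subunit, whose mature proteins are identical, were all expressed, with Atp5g3 at 56.3% to 65.9%, Atp5g2 at 31.3% to 40.5% and Atp5g1 at 2.66% to 3.44% of the family. The low share of Atp5g1 rests in part on a principal transcript of 4715 bases in the annotation. Atp5g1 and Atp5g2 were among 14 nuclear members with a copy of 100 bases or more at 98% identity elsewhere in the genome, in processed pseudogenes for all but Cox5b, whose copy is annotated as protein-coding, so a part of their counts is uncertain.

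Complex V had 17 tested nuclear members with a median log2 fold change of 0.06 (9 positive, 8 negative). Atp5b, the catalytic beta subunit, had the highest level per length of the nuclear members (397 CPM per kilobase), followed within the complex by the alpha subunit Atp5a1 (273 CPM per kilobase). With length taken as the union of all annotated exons, Atp5a1 ranked first, Ndufa2 replaced Ndufa6 among the accessory subunits and Sdha replaced Sdhb in complex II. Atp5b was at 715, 828 and 820 CPM against 595, 742 and 860 CPM, with overlapping genotypes and a log2 fold change of 0.10 (SE 0.17), or -0.03 without wild-type replicate 1. Atp5o, the subunit that links the catalytic head to the stalk, was at 13.4, 13.7 and 13.9 CPM in Nfkb2-/- and at 7.28, 10.2 and 11.8 CPM in wild type. Every Nfkb2-/- library lay higher, and the log2 fold change was 0.49 (SE 0.22, adjusted p = 0.372, edgeR), or 0.31 without wild-type replicate 1. A second identifier of Atp5o, a longer gene model that overlaps it, had 0 counts in every library. It shares 243 bases of exon sequence with Atp5o, whose counts there are uncertain. Atp5s, a coupling factor, gave the most negative log2 fold change, -0.58 (SE 0.36), with 2.98, 2.75 and 2.28 CPM against 5.93, 2.77 and 3.19 CPM, and -0.16 without wild-type replicate 1.

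The 13 mitochondrially encoded messages split into 7 abundant ones, at 268 CPM or more in every library, and 6 scarce ones. The abundant ones were mt-Nd1, mt-Nd2, mt-Nd4, mt-Nd5 and mt-Nd6 of complex I, mt-Cytb of complex III and mt-Co1 of complex IV. By contrast mt-Co2, mt-Co3, mt-Atp6, mt-Nd4l, mt-Nd3 and mt-Atp8 never passed 16.9 CPM. In counts, mt-Co2 had 114 to 207 per library, mt-Co3 49 to 114 and mt-Atp6 50 to 97, while mt-Nd4l had 2 to 11. Among them are the 5 whose sequence lies almost whole in a chromosome 1 pseudogene, as in the mt-Nd3 and mt-Co2 pairs shown. mt-Atp8 had at most 5 counts in a library and mt-Nd3 between 3 and 9, and neither was tested. The pseudogenes themselves held at most 430 counts in a library. Gm28661, the mt-Co2 copy, had 91, 56 and 128 in Nfkb2-/- and 129, 72 and 88 in wild type, below mt-Co2 in every library. Gm10925, the mt-Atp6 copy, had 231, 98 and 268 against 430, 122 and 148, above mt-Atp6 in every library. How reads that match both places were handled by the deposited counting was not given in the sources used here. The low values of these members, and of mt-Nd4 and mt-Co1 in their shared stretches, are therefore uncertain as levels. mt-Nd6 is encoded on the opposite strand, and without strand in the libraries its reads cannot be told apart from antisense RNA.

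**Figure D4:**
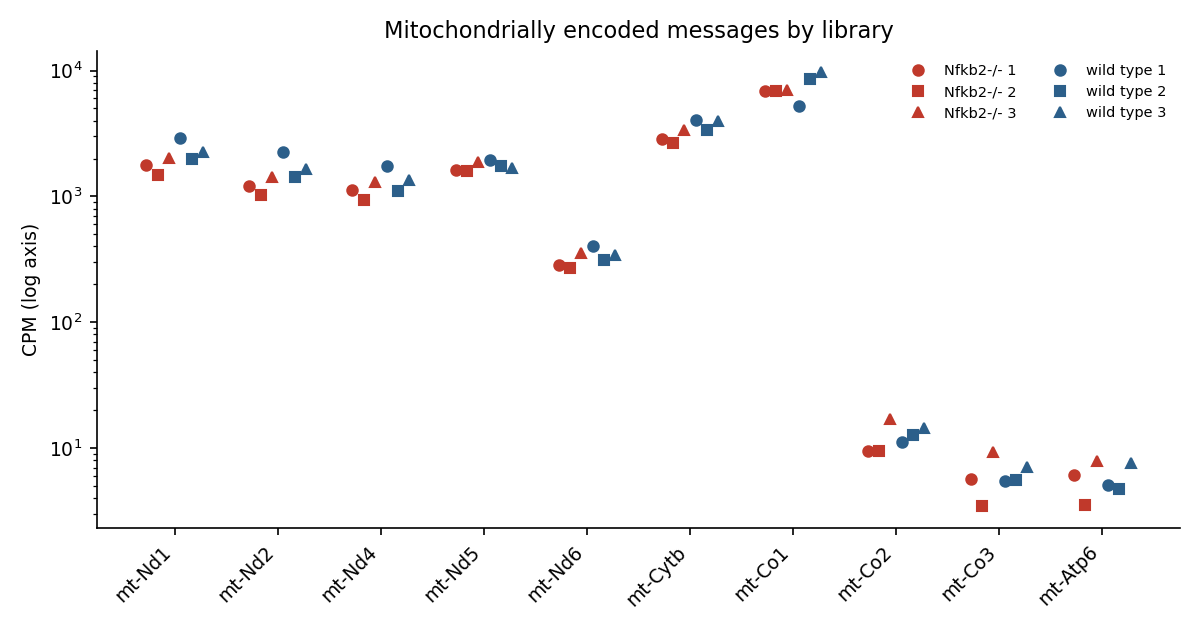
Level in CPM (log axis) of 10 mitochondrially encoded messages in each library, red for Nfkb2-/- and blue for wild type, with the symbol giving the replicate. The 7 abundant messages lie at 268 CPM or more and mt-Co2, mt-Co3 and mt-Atp6 at 16.9 CPM or less, and mt-Co1 in wild-type replicate 1 lies at 5202 CPM while the other abundant messages peak there.

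All 7 abundant mitochondrial messages had negative log2 fold changes, from -0.54 to -0.08, and none was called. mt-Nd2, a membrane subunit of complex I, was at 1213, 1029 and 1415 CPM in Nfkb2-/- and at 2267, 1421 and 1647 CPM in wild type. Its genotypes were separate by a narrow margin, and its log2 fold change of -0.54 (SE 0.22, adjusted p = 0.341, edgeR) became -0.33 (SE 0.16) without wild-type replicate 1. mt-Cytb, the catalytic subunit of complex III, was at 2863, 2670 and 3351 CPM against 4076, 3359 and 4005 CPM, again separate, with -0.36 (SE 0.18, adjusted p = 0.445, edgeR) and -0.32 (SE 0.16) without that library. Both genes are among those with no near-identical nuclear copy. mt-Nd1 was at 1787, 1490 and 2028 CPM against 2887, 1969 and 2258 CPM, overlapping by the third Nfkb2-/- library, with -0.42 (SE 0.21). mt-Nd4 gave -0.32 (SE 0.22) and mt-Nd6 -0.23 (SE 0.16). mt-Nd5 gave -0.08 (SE 0.16). Without wild-type replicate 1 these 4 came to -0.26 for mt-Nd1, -0.13 for mt-Nd4, -0.12 for mt-Nd6 and -0.02 for mt-Nd5. Of the scarce messages, mt-Co2 gave -0.10 (SE 0.27), mt-Co3 and mt-Atp6 0.01 each (SE 0.36 and 0.35) and mt-Nd4l 0.08 (SE 0.65).

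mt-Co1, the catalytic subunit of complex IV and the most abundant member per length (4771 CPM per kilobase), behaved differently in wild-type replicate 1. It was at 6840, 6923 and 6958 CPM in Nfkb2-/- and at 5202, 8640 and 9665 CPM in wild type, lowest in the library in which the other 6 abundant messages were highest. The ratio of mt-Co1 counts to the sum of those 6 was 0.77, 0.868 and 0.674 in Nfkb2-/- and 0.39, 0.873 and 0.855 in wild type. This ratio lies within a library and does not depend on the scaling. The log2 fold change of mt-Co1 was -0.18 (SE 0.26) with all libraries and -0.41 (SE 0.16, adjusted p = 0.142, edgeR) without wild-type replicate 1.

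Summed over all 13, mitochondrial messages were at 15745, 14915 and 17320 CPM in Nfkb2-/- and at 18552, 18560 and 20996 CPM in wild type, so every Nfkb2-/- library lay lower. As a share of all counts they made up 1.59%, 1.48% and 1.67% against 1.99%, 1.87% and 2% of the library. Nuclear members made up 0.559%, 0.598% and 0.59% against 0.463%, 0.587% and 0.65%, which overlapped. The ratio of mitochondrial to nuclear counts was 2.84, 2.47 and 2.83 in Nfkb2-/- (mean 2.71, SD 0.21, n = 3) and 4.3, 3.19 and 3.08 in wild type (mean 3.52, SD 0.676, n = 3), without overlap. The log2 of the ratio of means was -0.38, and -0.21 without wild-type replicate 1, whose ratio was the highest of the 6. With each level taken per kilobase of exon (the union of all annotated exons), the ratios were 4.06, 3.46 and 4.11 against 6.95, 4.47 and 4.21, still without overlap.

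The separation was narrow and rested on mt-Co1 outside wild-type replicate 1. With only the 5 mitochondrial members listed above as having no near-identical copy (mt-Atp8, with 6 and 5 counts in all, was left out too), the ratio was 1.4, 1.16 and 1.47 against 2.68, 1.51 and 1.46, which overlapped (log2 -0.49, and -0.14 without wild-type replicate 1). For the 6 abundant messages other than mt-Co1 it was 1.6, 1.32 and 1.68 against 3.09, 1.7 and 1.66, and for mt-Co1 alone 1.23, 1.15 and 1.14 against 1.21, 1.48 and 1.42. The mitochondrial ribosomal RNAs, made from the same chromosome, summed to 755, 859 and 1080 CPM against 1304, 964 and 1554 CPM, overlapping by 1 library. No p is given for these sums and ratios, since the genes were chosen with earlier results of these data known.

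**Figure D5:**
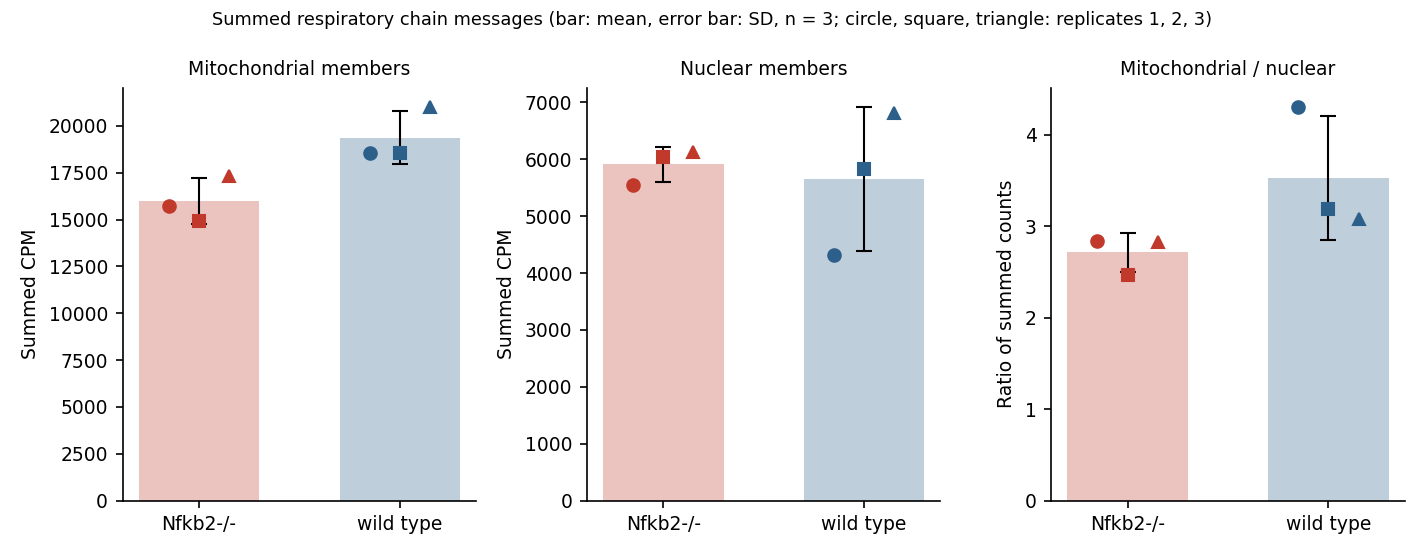
Summed CPM of the 13 mitochondrial members (left) and the 94 nuclear members (middle), and the ratio of their summed counts (right), with 1 point per library, the mean of 3 libraries as a bar and the SD as an error bar. The genotypes are separate in the left and right panels and overlap in the middle one, and wild-type replicate 1 (blue circle) has the highest ratio, 4.3.

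The genes around the respiratory chain were given as 6 lists, and edgeR called 0 members of each, against 1.42% of all genes. Among 16 tested genes of other subunits and electron or metabolite carriers (median log2 fold change 0.06, 2 at an unadjusted p under 0.05, a level that 13.6% of all genes passed), Sqor, which feeds electrons from sulfide to ubiquinone, gave -0.72 (SE 0.26, adjusted p = 0.279, edgeR) and Dhodh, the ubiquinone-linked enzyme of pyrimidine synthesis, -0.44 (SE 0.18). Levels were 4.3 ± 0.804 against 7.06 ± 1.44 CPM for Sqor and 7.76 ± 0.725 against 10.5 ± 0.72 CPM for Dhodh (SD, n = 3 each), without overlap. Cytochrome c1 (Cyc1) gave 0.12 and cytochrome c (Cycs) 0.07, and -0.00 and -0.16 without wild-type replicate 1.

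Ubiquinone is the mobile carrier between complexes I or II and III, and its 13 synthesis genes had a median of -0.04, 1 of them at an unadjusted p under 0.05 (13.6% of all genes). Coq8a, an atypical kinase-like protein needed for ubiquinone synthesis, stood at 375 ± 50.4 against 157 ± 69 CPM (SD, n = 3 each). Its genotypes did not overlap, and its log2 fold change was 1.26 (SE 0.33, adjusted p = 0.135, edgeR). It was called with the replicate number as a block (1.36, adjusted p = 0.0438, edgeR) and without wild-type replicate 1 (0.93, adjusted p = 0.000853, edgeR). Over all alternatives its adjusted p ran from 0.000853 to 0.457. Coq7, a hydroxylase of the same pathway, gave -0.60 (SE 0.36).

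Assembly factors outside the naming rule had 39 tested genes with a median of -0.14, 26 negative and 13 positive. Of these, 3 had an unadjusted p under 0.05, all lower (13.6% of all genes). Without overlap, 7 of the 39 lay lower and 0 higher in Nfkb2-/-, beside 9.9% and 10.7% of all genes. Cox10, which makes the heme A precursor for complex IV, was at 13.4 ± 1.05 against 19.7 ± 2.62 CPM (SD, n = 3 each), with -0.55 (SE 0.17, adjusted p = 0.191, edgeR). It was -0.64 (adjusted p = 0.0189, edgeR) and called without wild-type replicate 1, and its adjusted p ran from 0.0189 to 0.635 over all alternatives. Sdhaf3, an assembly factor of the Sdhb iron-sulfur subunit, stood at 0.912 ± 0.143 against 1.95 ± 0.432 CPM (SD, n = 3 each) and gave -1.10 (SE 0.35, adjusted p = 0.198, edgeR).

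The genes of mitochondrial DNA upkeep, transcription and RNA handling (25 tested) had a median of -0.16, with 20 negative and 5 positive. Of the 25 tested, 7 lay lower and 2 higher in Nfkb2-/- without overlap, beside 9.9% and 10.7% of all genes. At an unadjusted p under 0.05 there were 2 (13.6% of all genes). Fastkd1 gave -0.65 (SE 0.28) and Fastkd3 0.33 (SE 0.14), both of a family of mitochondrial RNA-binding proteins, and Fastkd1 came to -0.40 without wild-type replicate 1. Among 12 tested regulators of mitochondrial biogenesis (median -0.14, 1 at an unadjusted p under 0.05, against 13.6% of all genes), Gabpb1, a subunit of the ETS factor GABP, was at 312 ± 39.8 against 216 ± 43 CPM (SD, n = 3 each), which is 0.53 on the log2 scale (SE 0.18, adjusted p = 0.243, edgeR). Esrra, a nuclear receptor of the same programme, gave -0.50 (SE 0.24), or -0.24 without wild-type replicate 1. The 18 genes of the citric acid cycle and pyruvate dehydrogenase, which supply the chain with NADH and succinate, had a median of 0.05, 1 of them at an unadjusted p under 0.05, against 13.6% of all genes. Dlst, a subunit of the oxoglutarate dehydrogenase complex, gave 0.30 (SE 0.11) without overlap and was not called.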

How the data were processed

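RNA was measured in 6 libraries of splenic Tregs, 3 per genotype, without strand information, per the labels. Each deposited file lists raw read counts by gene identifier, as whole numbers. The submitters' processing notes give GRCm38 as the build and list HISAT2, HTSeq, FastQC and DESeq2, with no versions. How HTSeq assigned reads was not given in the sources used here. Of 55573 gene identifiers, 93 had no match in GENCODE M21, the GRCm38 annotation used for symbols, gene types, positions and principal transcripts. The members and lists were chosen with earlier results of these data known.

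The test was the edgeR 4.0.16 quasi-likelihood test (R 4.3.3), fitted robustly to genotype alone after filterByExpr and TMM scaling (factors 0.954 to 1.08). The p-values of all 13347 genes that passed were adjusted together by the Benjamini-Hochberg method, and a gene was called under 0.05. Biological variation, as edgeR's common coefficient, came to 0.228. The code was tested on simulated counts. Of the 107 members, 10 were not tested: Cox4i2, Cox6a2, Cox7a1, Cox7b2, Cox8b, Cox8c, Ndufa4l2, mt-Atp8, mt-Nd3 and the second identifier of Atp5o. Levels per length use the principal transcript, except where the union of exons is named, and deviations use log2(CPM + 0.5). Limits set on 0 counts cover counting error only. Copies were sought with BLAST+ 2.17.0 among all annotated transcripts. Plots came from matplotlib 3.10.9 (Python 3.11.15).

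Named genes are Nfkb2, all mitochondrial members, in each nuclear set the 2 members with the smallest p and the highest level per length, the tissue isoforms with their partners, X-linked members, members within 10 Mb of Nfkb2, in each other list the 2 genes with the smallest p, and members called in an alternative fit. Some genes this rule names are left out of the text and not reported here. Other members and genes named, such as the examples of wild-type replicate 1, Sdhc, Sdhd, Atp5b, Cyc1 and Cycs, were chosen after their values were seen.

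Both genotypes carry replicate numbers 1 to 3, whose meaning the labels leave unsaid. Libraries with equal numbers deviated together from their genotype's mean, with correlations of 0.364, 0.267 and 0.111. All exceed 0.1, so the numbers were treated as pairs in an alternative fit with a block, while the main fit used genotype alone. Wild-type replicate 2 was closer to Nfkb2-/- replicate 3 (0.251) than wild-type replicate 3 was, so the support for pairs is weak. Other alternatives were RLE and upper-quartile scaling, scaling without mitochondrial genes, no count filter, at least 1 CPM in 3 libraries, DESeq2 1.42.0, limma-voom (limma 3.58.1) and leaving out each library in turn.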

Additional observations from a re-analysis of the deposited data

How the results depend on the processing

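With all 6 libraries, 0 members were called higher and 0 lower under each scaling, filter and tool tried. With the replicate block 0 members were called, beside 2.17% of all genes, and the medians were 0.09 for nuclear and -0.15 for mitochondrial members, so the block changed no call of a member; of the other genes named it changed the call of Coq8a, to an adjusted p of 0.0438 (edgeR). Leaving out single libraries gave 0 to 1 members called lower, the 1 being Atp5e without wild-type replicate 1, and 0 called higher. The nuclear median log2 fold change then ran from -0.11 (without wild-type replicate 1) to 0.20 (without wild-type replicate 3). The mitochondrial median ran from -0.42 (without Nfkb2-/- replicate 3) to -0.12. The log2 mitochondrial to nuclear ratio ran from -0.47 to -0.21, with -0.49 for the 5 mitochondrial members without a near-identical copy and -0.43 per kilobase of exon. Of 1356 values of single members under alternatives, 1351 stayed within 1 SD, 4 moved further, 3 of these without wild-type replicate 1, and 1 was newly called. That SD is not the SE given for single genes. Ndufa2 went from 0.02 (SE 0.30) to 0.39 without wild-type replicate 3 and still counted as within it. The count of values within 1 SD therefore does not show that values were stable. The sign differed from that with all libraries in at least 1 alternative for 69 of 97 members. The causes were not tested.

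With 3 libraries a group, standard errors of 0.11 to 0.65 on the log2 scale set what could be called. Members at a few counts, such as mt-Atp8, mt-Nd3 and Cox6a2, were too low to be tested. Why their counts were low was not tested, and those of mt-Nd3 are also uncertain through its chromosome 1 copy.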
